A study of Populus deltoides with 12 samples.

Results

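Podel.09G121500.v2.1, Podel.14G127200.v2.1 and Podel.02G040700.v2.1 (the suffix is left out below) are 3 genes of the MYB family of transcription factors, described here in purple and green leaves of *Populus deltoides*. They were taken from a list of 11 MYB genes that the study had correlated with anthocyanins, and make up 3 of the 46170 genes in the expression tables. They were chosen by their change with leaf color in these same libraries, one because it fell strongly in purple leaves, one because it rose, and one because it changed in opposite directions in the 2 purple and green pairs. Their values in those 2 comparisons are therefore given as a description, with no test.

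The libraries were made from leaves of 3 poplar cultivars, all with a genotype given as WT, and each group holds 3 biological replicates. F_P and F_G are the fully expanded purple and green leaves of ZSY ('Zhongshanyuan'), a cultivar that bears both colors. P is the purple leaf of QHP ('Quanhong') and G the green leaf of L2025, the green cultivar from which the colored ones were raised. For P and G fully expanded leaves at the fourth and the fifth position were taken, and all plants were 2 years old. F_P vs. F_G compares colors within 1 cultivar, whereas in P vs. G color and cultivar cannot be told apart, and which plants gave which library is not stated.

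MYB transcription factors bind DNA through helical repeats, and the plant R2R3-MYB family is defined by a pair of such repeats. In plants, some R2R3-MYB proteins join a basic helix-loop-helix (bHLH) protein and a WD40 protein in a complex that switches on the genes of anthocyanin synthesis. Other MYB proteins repress the same pathway, and in *Arabidopsis* both kinds are known, with PAP1 as an activator and MYBL2 as a repressor. The family membership of the 3 poplar genes comes from the study's list, and no role of theirs was tested here.

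Expression was given as FPKM, fragments scaled to the exon length of a gene and to the size of the library, and from these values whole fragments could be recovered. The 12 libraries held between 14543579 and 16628923 fragments on annotated genes. Among replicates of a group, fragments differed by a chi-square of 2.82 to 11.04 per gene, and the highest values were those of G replicate 3 against the other G libraries. Genes of the light-harvesting antenna, which mark photosynthetic leaf tissue, were at 1 FPKM or more in every library (23 of 23). Their summed FPKM was lowest in P, at 6131 to 6557, and reached 7392 to 7604 in F_P, 9340 to 10910 in F_G and 20767 to 23791 in G. These sums were thus lower in the purple leaves of each pair, but F_G lay nearer to both purple groups than to G. Their part in the changes of the MYB genes was not tested.

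The gene models differ among the 3 genes. Coordinates are those of the annotation deposited with the data, which does not name its build. Podel.09G121500 lies on the plus strand of chromosome 9 at 10141045 to 10142580, and its 2 coding exons of 258 and 33 bases encode 96 amino acids. Podel.14G127200 lies on the plus strand of chromosome 14 at 9347042 to 9350314 and has 2 annotated transcripts. Its transcript 1 has coding exons of 133, 130 and 991 bases, or 417 amino acids. Its transcript 2 keeps the 991-base exon but carries a long second exon that is almost wholly noncoding, and the coding length drops to 999 bases. Podel.02G040700 lies on the minus strand of chromosome 2 at 2803639 to 2805669, and its coding exons of 133, 130 and 556 bases encode 272 amino acids. None of the 3 overlapped another annotated gene (0).

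**Figure D1:**
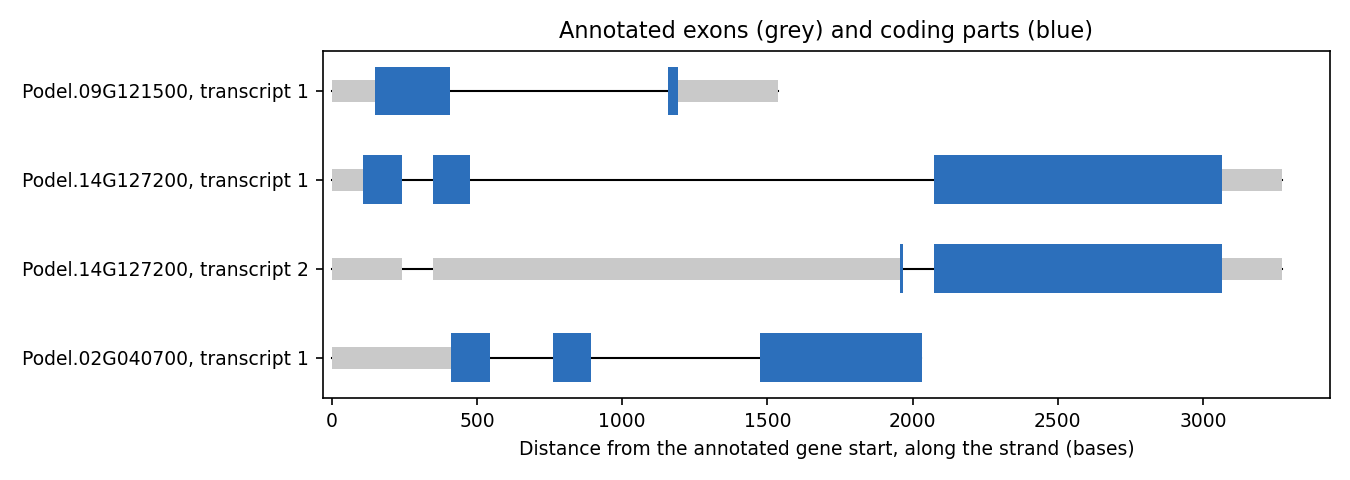
Exon models of Podel.09G121500, Podel.14G127200 (2 transcripts) and Podel.02G040700, drawn by distance in bases from the annotated gene start along the strand, with exons in grey, coding parts in blue and introns as lines. Podel.14G127200 transcript 1 and Podel.02G040700 begin with coding exons of 133 and 130 bases, which Podel.09G121500 lacks.

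Many plant R2R3-MYB genes are known to share the lengths of their opening coding exons, since the introns interrupt the DNA-binding repeats at fixed places. Coding exons of 133 and then 130 bases opened 62 of the 44853 annotated genes, or 0.138%, and 58 of these had 3 coding exons in all. The pair was found in 4 of the 11 listed MYB genes, including Podel.14G127200 and Podel.02G040700, and in none of the 11 listed bHLH genes (0) or the 37 listed structural genes (0). Podel.09G121500 was one of 4 listed MYB genes whose coding length was under 300 bases, at 291.

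Podel.09G121500 was high in the green leaves. In F_G the 3 libraries gave 102, 108 and 95.6 FPKM, a mean of 102 ± 6.36 (SD, n = 3). In F_P they gave 0.0798, 0.0795 and 0 FPKM, which stand for 1, 1 and 0 fragments. The gene was thus near the limit of detection in the purple leaves of ZSY, and at 1150 to 1408 fragments per library in the green leaves of the same cultivar. In a bulk sample, fewer cells that express a gene and less RNA per cell cannot be told apart.

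In G, Podel.09G121500 was at 102, 102 and 135 FPKM (113 ± 18.9, SD, n = 3), and in P at 13.98, 12.5 and 7.65 FPKM (11.4 ± 3.31, SD, n = 3). G and F_G overlapped, and P lay below both of them and above F_P with no overlap. The spread among the P libraries, a coefficient of variation of 29.1%, exceeded the 7.97% that counting 157 fragments per library would give. The gene stood at percentile 96.8 of the expressed genes in F_G and 96.9 in G, at 68.2 in P and at 6.84 in F_P.

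The ratio of the mean FPKM of F_G to that of F_P was 1922. Pooled over the libraries, 3785 fragments in F_G stood against 2 in F_P, and the ratio of these sums, scaled to library size, was 1951, with a counting interval of 540 to 16113 (95%). G was 9.91 times as high as P. On the scale of log2(FPKM + 1), which understates the change of genes near 0, the fall was −6.61 ± 0.094 (SE) within ZSY and −3.23 ± 0.21 (SE) between P and G. A change of at least this size was seen in 0.035% of the genes tested within ZSY and in 1.73% between P and G.

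Podel.14G127200 had the reverse order. In F_G it was at 2.03, 1.89 and 2.07 FPKM (1.99 ± 0.0911, SD, n = 3), and in F_P at 26.5, 26.6 and 23.8 FPKM (25.6 ± 1.57, SD, n = 3). In G the libraries gave 4.53, 5.03 and 4.65 FPKM (4.74 ± 0.258, SD, n = 3), and in P 18.8, 19.2 and 19.2 FPKM (19.1 ± 0.237, SD, n = 3). The 4 groups did not overlap, and the order ran from F_P through P and G down to F_G.

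This gene was 12.8 times as high in F_P as in F_G and 4.03 times as high in P as in G. The log2 differences were 3.15 ± 0.097 (SE) and 1.81 ± 0.088 (SE). Changes of at least that size were seen in 0.922% of the genes tested within ZSY, and in 9.35% between P and G. The spread among replicates was small, with coefficients of variation between 1.24% in P and 6.13% in F_P, and the lowest library still held 95 fragments. Counting alone would give 3.12% in P and 2.80% in F_P. The spread was also below counting error in G (5.45% against 6.86%) and in F_G (4.57% against 10.2%). Its FPKM values were scaled to 3060 bases, the joint exon length of both transcripts, whereas transcript 1 measures 1570 bases. Its level relative to other genes thus depends on which transcript was expressed, which FPKM per gene do not show.

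Podel.02G040700 moved in opposite directions with color. In F_G it was at 102, 91.3 and 81.7 FPKM (91.5 ± 9.95, SD, n = 3), and in F_P at 47.4, 42.0 and 44.7 FPKM (44.7 ± 2.70, SD, n = 3). In P the libraries gave 34.0, 29.6 and 28.9 FPKM (30.8 ± 2.76, SD, n = 3), and in G 12.998, 11.1 and 12.2 FPKM (12.1 ± 0.944, SD, n = 3). Every F_P library lay below every F_G library, and every P library above every G library. Both purple groups lay between the 2 green groups.

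The green leaves of ZSY held 2.05 times the level of its purple leaves, whereas P held 2.54 times the level of G. The log2 difference was −1.01 ± 0.087 (SE) within ZSY and 1.28 ± 0.095 (SE) between P and G. These changes were not among the larger ones of the series, since 18.1% and 18.3% of the genes tested changed at least as far. The gap between the green groups was wider, with F_G 7.56 times as high as G. Of the 24581 genes tested in both comparisons, 129 (0.525%) were called lower in F_P and higher in P, and 41 the other way. Of the remaining genes, 607 were called higher and 1683 lower in both comparisons. A call needed an adjusted p no higher than 0.05 and a log2 change of at least 1 in either direction. The F_P vs. F_G value of Podel.02G040700 lies just past that minimum, at −0.94 without F_G replicate 1 and −1.09 without F_G replicate 3.

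**Figure D2:**
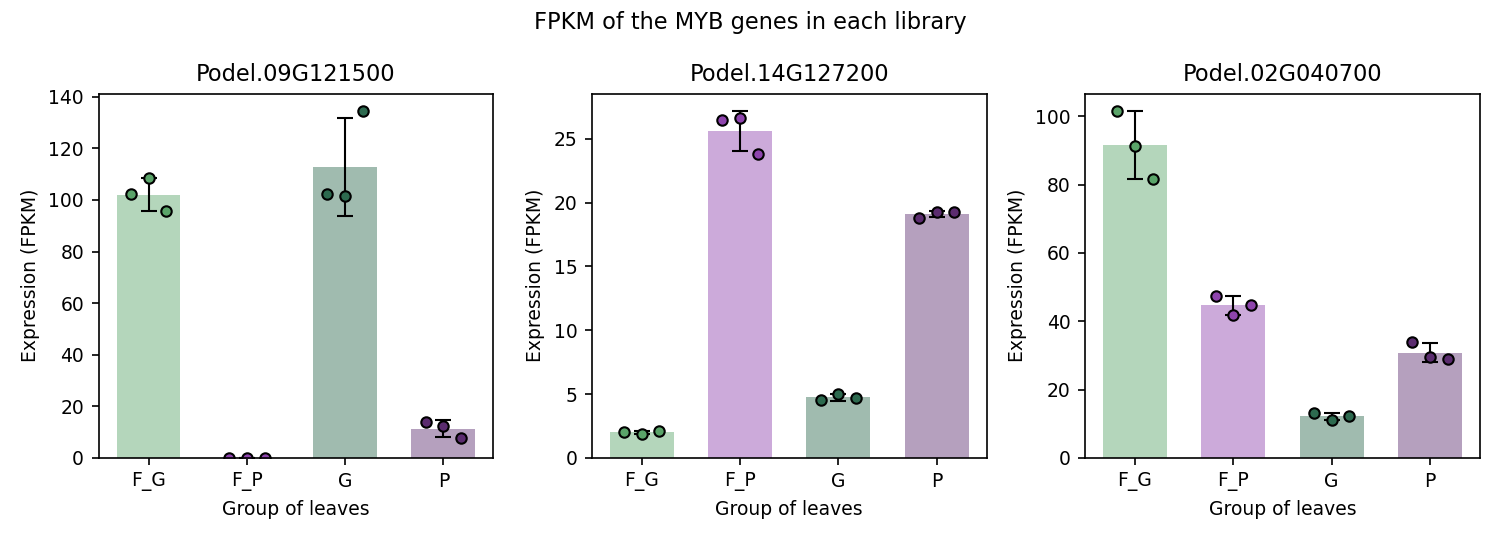
FPKM of Podel.09G121500, Podel.14G127200 and Podel.02G040700 in F_G, F_P, G and P. Points are the 3 libraries of a group, bars the mean and error bars the SD. Podel.09G121500 is at 102 FPKM in F_G and at 0.0531 in F_P, Podel.14G127200 runs from 1.99 in F_G to 25.6 in F_P, and the purple groups of Podel.02G040700 lie between G and F_G.

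Leaves of the same color were compared between cultivars, a contrast that the choice of Podel.09G121500 and Podel.14G127200 did not use directly. The choice rested on the same 4 group levels, so the p-values below are not fully independent of it. Podel.02G040700 was not tested here, because it was chosen for opposite changes over the same 4 group levels. In the purple leaves, 10.6% of the 24752 genes with at least 1 FPKM in 3 or more libraries were called in F_P vs. P. Podel.09G121500 reached that minimum through the P libraries alone, so its p is taken from the fit without that minimum. It was lower in F_P than in P by a log2 change of −3.52 ± 0.22 (SE, limma adjusted p = 4.14e-05). The ratio of the mean FPKM of P to that of F_P was 214. That of the pooled fragments, 472 against 2, was 218 after scaling to library size, with a counting interval of 59.9 to 1801 (95%).

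Podel.14G127200 was 1.34 times as high in F_P as in P. This log2 difference of 0.40 ± 0.062 (SE) had a limma adjusted p of 0.00101 and did not reach the minimum change for a call. Podel.02G040700 was 1.45 times as high in F_P as in P, a log2 difference of 0.52.

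In the green leaves, neither Podel.09G121500 nor Podel.14G127200 was called in F_G vs. G by limma on FPKM, beside 19.9% of 26789 genes. Podel.09G121500 was 1.11 times as high in G as in F_G, with overlapping libraries and a log2 difference of −0.13 ± 0.12 (SE, limma adjusted p = 0.39). Without G replicate 3, the highest of the G libraries, the log2 difference was 0.00053. The difference between the green groups was thus within the spread of the replicates.

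Podel.14G127200 was 2.38 times as high in G as in F_G. Its log2 difference of −0.94 ± 0.14 (SE) had a limma adjusted p of 0.00092, and its size lay just under the minimum. With a pseudocount of 0.1 the difference was −1.21 (adjusted p = 0.0012), and with limma's voom on the recovered fragments −1.11 (adjusted p = 0.00026), and the gene was called lower in F_G under both. Over all 13 alternatives the limma adjusted p ran from 1.13e-06 to 0.0078. Podel.02G040700, given as a value alone, was higher in F_G by a log2 difference of 2.82.

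Among the 11 listed MYB genes, the rank of each gene by mean FPKM changed with the leaf. Podel.09G121500 ranked 3 in F_G and 2 in G, fell to 7 in P, and was the lowest of the 11 in F_P. In F_G its libraries overlapped those of PdeMYB2 above it and Podel.02G040700 below it. Podel.14G127200 was the lowest of the 11 in F_G and ranked 6 in F_P and 5 in P. In G its mean of 4.74 FPKM was also the lowest, but its libraries overlapped those of Podel.08G221200 (4.80), and in P they overlapped those of PdeMYB1. At the length of transcript 1, its mean would be 3.89 FPKM in F_G and 9.24 in G, and 49.9 in F_P and 37.2 in P, so that its place in G, F_P and P depends on the transcript. Podel.02G040700 ranked 4 in F_G, 3 in F_P, 2 in P and 8 in G, and overlapped a listed gene next to it in each of these groups. In F_P it held 18.1% of the summed FPKM of the 11 genes and in G 1.52%, while Podel.09G121500 held 17.6% in F_G and 0.0216% in F_P.

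The other 8 MYB genes of the list mostly fell in purple leaves, beside the background of calls. In F_P vs. F_G, 2 were called higher and 5 lower, where 5.68% of the 25713 genes tested were called higher and 12.5% lower. In P vs. G, 2 were called higher and 6 lower, where 9.85% of 26577 genes were called higher and 16.2% lower. The share of calls that were higher in P was 37.8%, and 49.6% with voom, while the counts of the 8 MYB genes in P vs. G were 2 and 6 there too. The study had chosen the list on these libraries, so that these counts are not independent evidence of a direction. The median log2 change of the 8 was −1.97 within ZSY and −1.71 between P and G, beside 0.04 and −0.02 over all genes tested.

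Those higher in both comparisons were Podel.04G021100 (PdeMYB1), with log2 changes of 1.65 and 1.56, and Podel.08G221200, with 1.71 and 2.31. Podel.14G127200 thus had the same sign as these, with 3.15 and 1.81. The lower genes were Podel.06G163300 (−2.48 and −2.52), Podel.02G205100 (−2.10 and −1.58), Podel.06G106200 (−2.09 and −2.24), Podel.07G028800 (−2.002 and −1.39) and Podel.06G234300, named PdeMYB2 (−1.94 and −2.19). Podel.17G037900 was called lower in P vs. G (−1.83) and had a log2 change of −0.95 in F_P vs. F_G. None of the 8 had opposite signs in the 2 comparisons, as Podel.02G040700 did, and none of the 8 had a change as far from 0 as Podel.09G121500 in either.

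**Figure D3:**
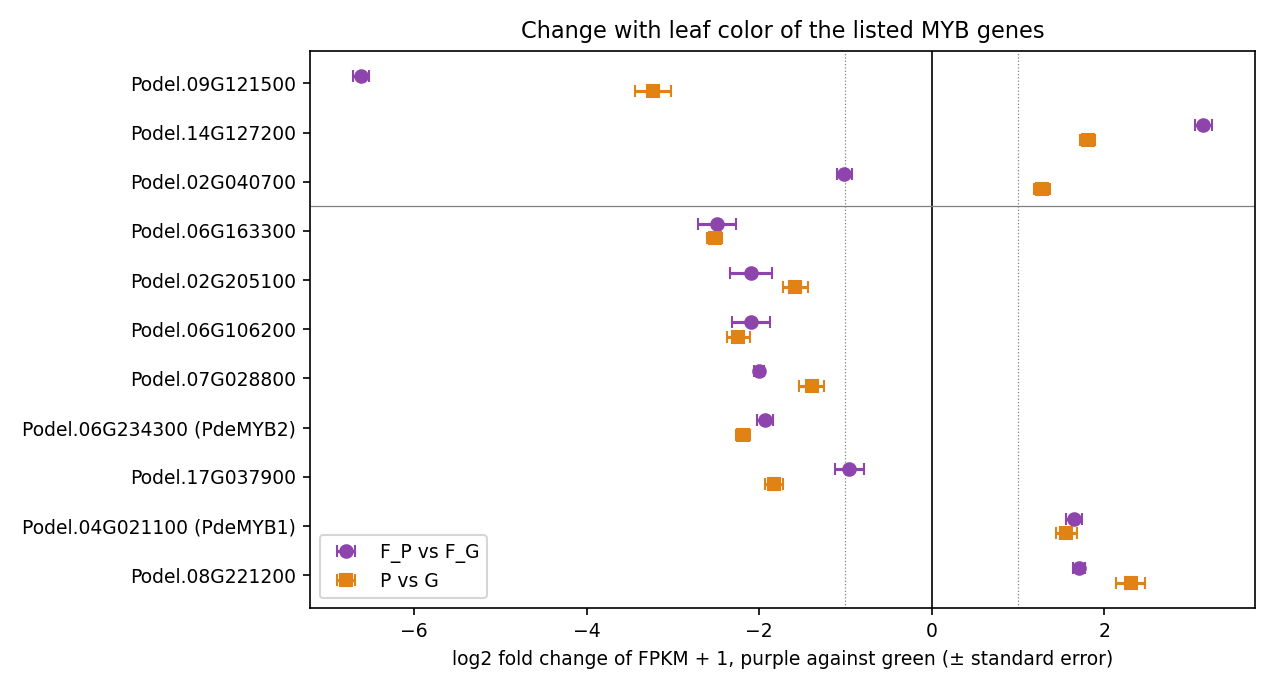
Log2 change of FPKM + 1 with leaf color in the 11 listed MYB genes, purple against green, with circles for F_P vs. F_G, squares for P vs. G and error bars for the standard error. Dotted lines mark a log2 change of 1 in either direction, and the 3 genes described are above the grey line. Podel.09G121500 lies at −6.61 and −3.23, and the symbols of Podel.02G040700 lie on opposite sides of 0.

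The bHLH and structural genes were counted from the study's lists, which were also chosen on these libraries. Whether any of them acts with or under a MYB factor was not tested. Of the 11 bHLH genes, 2 were called higher and 7 lower in F_P vs. F_G. In P vs. G, 3 of them were higher and 8 lower. Over all genes tested, these shares were again 5.68% higher and 12.5% lower within ZSY, and 9.85% and 16.2% between P and G. Of 32 tested structural genes, which encode the enzymes of the flavonoid and anthocyanin pathway, 12 were higher and 10 lower in F_P vs. F_G. In P vs. G, 13 were higher and 13 lower. Among 30 structural genes tested in both comparisons, 1 shared the pattern of Podel.02G040700, lower in F_P and higher in P.

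The genes whose coding exons open with 133 and 130 bases, as in Podel.14G127200 and Podel.02G040700, were counted after the values had been seen. Leaving out these 2 genes, 24 of the other 60 could be tested in F_P vs. F_G. By limma on FPKM, 0 of the 24 were called higher and 15 lower, beside 5.68% and 12.5% of all genes tested. Their median log2 change was −1.28, beside 0.04 over all genes. With voom these counts were also 0 and 15. At an unadjusted limma p under 0.05, 3 of the 24 were higher and 15 lower. Over all 25713 genes tested, 8135 were higher and 7490 lower at that level. In P vs. G, 2 of 23 were called higher and 8 lower, beside 9.85% and 16.2%, with a median of −0.12. The 2 fell to 1 without G replicate 2, without G replicate 3 or without P replicate 2. The group includes PdeMYB2 and Podel.02G205100, which the study had picked on these libraries.

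The neighbours of each gene were compared with it, taking 10 annotated genes on each side. Around Podel.09G121500, 0 of 13 tested neighbours were called higher and 1 lower in F_P vs. F_G. With voom these were 0 and 2. At an unadjusted limma p under 0.05, 5 of the 13 were higher and 3 lower in F_P vs. F_G. Over all 25713 genes tested, 8135 were higher and 7490 lower at that level. In P vs. G, 1 of 16 was called higher and 3 lower. The neighbour called lower in both was Podel.09G122300, a bHLH gene of the study's list that starts 55.9 kb downstream. Its mean FPKM was 11.6 ± 0.702 in F_G against 0.442 ± 0.327 in F_P, and 23.0 ± 0.521 in G against 2.63 ± 0.310 in P (SD, n = 3 each). Its log2 changes were −3.15 within ZSY and −2.73 between P and G, and like Podel.09G121500 it was lowest in F_P. This was not particular to it, since other neighbours were lowest in F_P too, some of them below the minimum within ZSY. The neighbour 31.9 kb downstream, below that minimum, had means of 20.6 FPKM in G, 1.30 in F_G, 0.650 in P and 0.0244 in F_P.

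Around Podel.14G127200, 3 of 11 tested neighbours were called higher and 1 lower in F_P vs. F_G, and 3 of 14 higher and 3 lower in P vs. G. In either direction, 18.2% of all genes tested were called within ZSY and 26.1% between P and G. No difference from these shares was tested for the neighbours. Their log2 changes were between −1.32 and 1.82 in F_P vs. F_G among those called, while Podel.14G127200 had 3.15. Around Podel.02G040700, no neighbour of 11 tested was called in F_P vs. F_G by limma on FPKM (0), where 1 was called lower with voom. At an unadjusted limma p under 0.05, 2 of these 11 were higher and 5 lower, beside 8135 and 7490 of all 25713 genes tested. In P vs. G, 1 of 11 was called higher, with a log2 change of 1.16, and its value in F_P vs. F_G was 0.25.

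**Figure D4:**
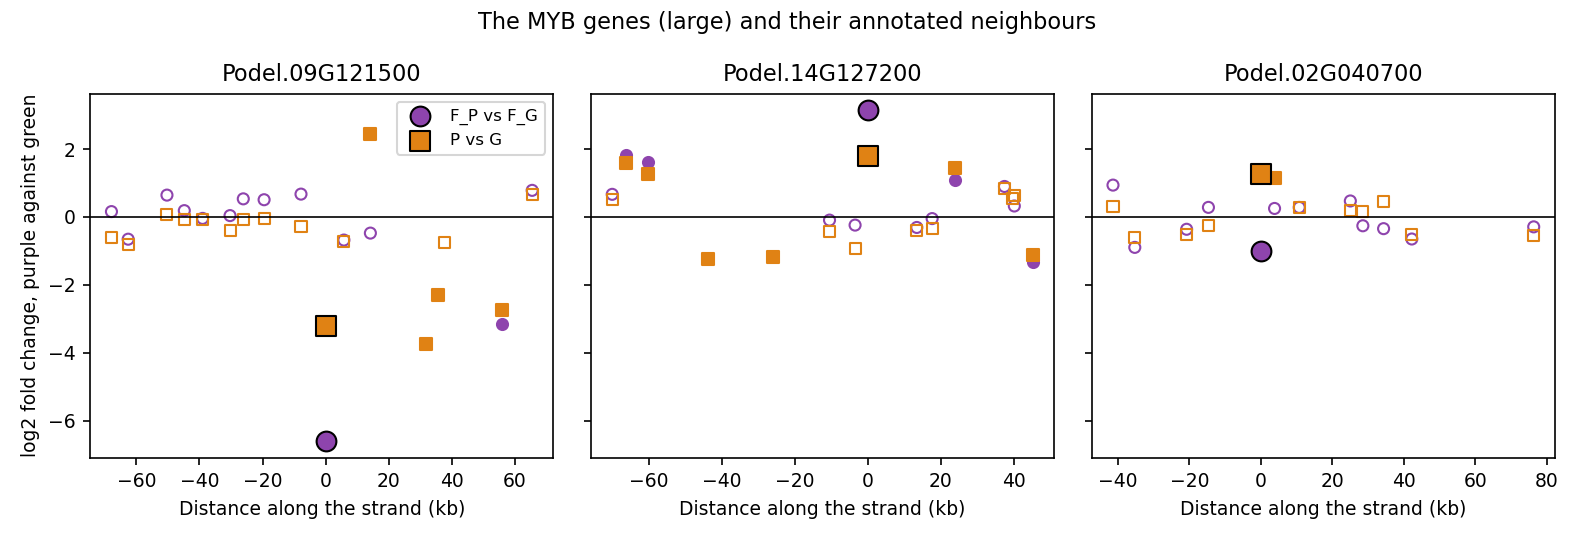
Log2 change with leaf color of Podel.09G121500, Podel.14G127200 and Podel.02G040700 (large symbols at 0 kb) and of the 10 annotated genes on each side that could be tested, by distance in kb along the strand. Circles are F_P vs. F_G, squares P vs. G, and filled small symbols are genes that were called. The purple symbol at 55.9 kb from Podel.09G121500 is the bHLH gene Podel.09G122300, at −3.15.

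The genes most like each MYB gene over the 12 libraries were found by the root-mean-square (RMS) difference of log2(FPKM + 1), after each gene's own mean was subtracted. A value of 0 would be the same profile. All 12 points share the 4 groups, so that the difference mostly compares 4 group levels, and it is a description.

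The 3 listed genes nearest to Podel.09G121500 were all bHLH genes. They were Podel.04G160100 (RMS difference 1.12), Podel.03G099000 (1.15) and Podel.09G122300 (1.30), where the spread of Podel.09G121500 itself was 2.76. Among the listed genes tested in both color comparisons, 7 of 11 bHLH genes were called lower in both. So were 7 of 30 structural genes and 5 of the other 8 MYB genes. Podel.04G160100 had a mean of 20.4 FPKM in F_G against 0.781 in F_P, and of 51.4 in G against 6.64 in P. Podel.03G099000 was listed at 0 in F_P, against 12.1 FPKM in F_G. Among all 26003 genes with a mean of at least 1 FPKM, 53 were nearer than the nearest listed gene. The nearest of all was Podel.06G066700 (0.613), with 289 FPKM in F_G and 147 in G, 21.5 in P, and listed at 0 in F_P. With the sign turned, the nearest listed genes were PdeCHS2 (1.62), Podel.14G127200 (1.70) and PdeUFGT3 (1.79).

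The 3 listed genes nearest to Podel.14G127200 all encode pathway enzymes. They were PdeANS3 (RMS difference 0.446), an anthocyanidin synthase gene, PdeCHS2 (0.474), a gene of chalcone synthase, which opens the flavonoid pathway, and PdeF3'H1 (0.486), a flavonoid 3'-hydroxylase gene. The spread of Podel.14G127200 itself was 1.29. Structural genes made up 37 of the listed genes, beside 11 bHLH and 11 MYB genes. Of those tested in both color comparisons, 9 of 30 structural genes were called higher in both. The same held for 2 of 11 bHLH genes and 2 of the other 8 MYB genes, so the kind of gene found nearest also depends on the make-up of the lists. PdeCHS2 rose from a mean of 177 FPKM in F_G to 1053 in F_P, and was at 136 in G and 782 in P. PdeANS3 was at 8.43 FPKM in F_G and 8.75 in G, and at 46.4 in F_P and 58.3 in P. Only 12 genes were nearer than PdeANS3, and the nearest was Podel.13G051200 (0.219), with 5.77, 44.1, 10.1 and 32.5 FPKM in F_G, F_P, G and P. With the sign turned, the bHLH genes Podel.T132400 (0.407) and Podel.05G135800 (0.498) and the MYB gene PdeMYB2 (0.467) were nearest among those listed.

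No listed gene was close to Podel.02G040700. The nearest, PdeFLS4 (0.768), a flavonol synthase gene, was farther than 1888 other genes, where the spread of Podel.02G040700 was 1.02. PdeFLS4 was at 32.5 FPKM in F_G and 67.6 in F_P, a change in the opposite direction to that of Podel.02G040700. The others were the bHLH gene Podel.01G109500 (0.778) and PdeF3'5'H2 (0.826), a flavonoid 3',5'-hydroxylase gene. Of all genes, Podel.01G084000 was nearest (0.143), at 10.2 FPKM in F_G against 4.59 in F_P, and 3.08 in P against 0.506 in G. With the sign turned, PdeANS4 (0.477), PdeUFGT2 (0.51) and PdeFLS2 (0.587) were nearest among the listed genes. PdeFLS2, also a flavonol synthase gene, was at 17.5 FPKM in F_G against 63.4 in F_P, and at 105 in G against 116 in P.

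**Figure D5:**
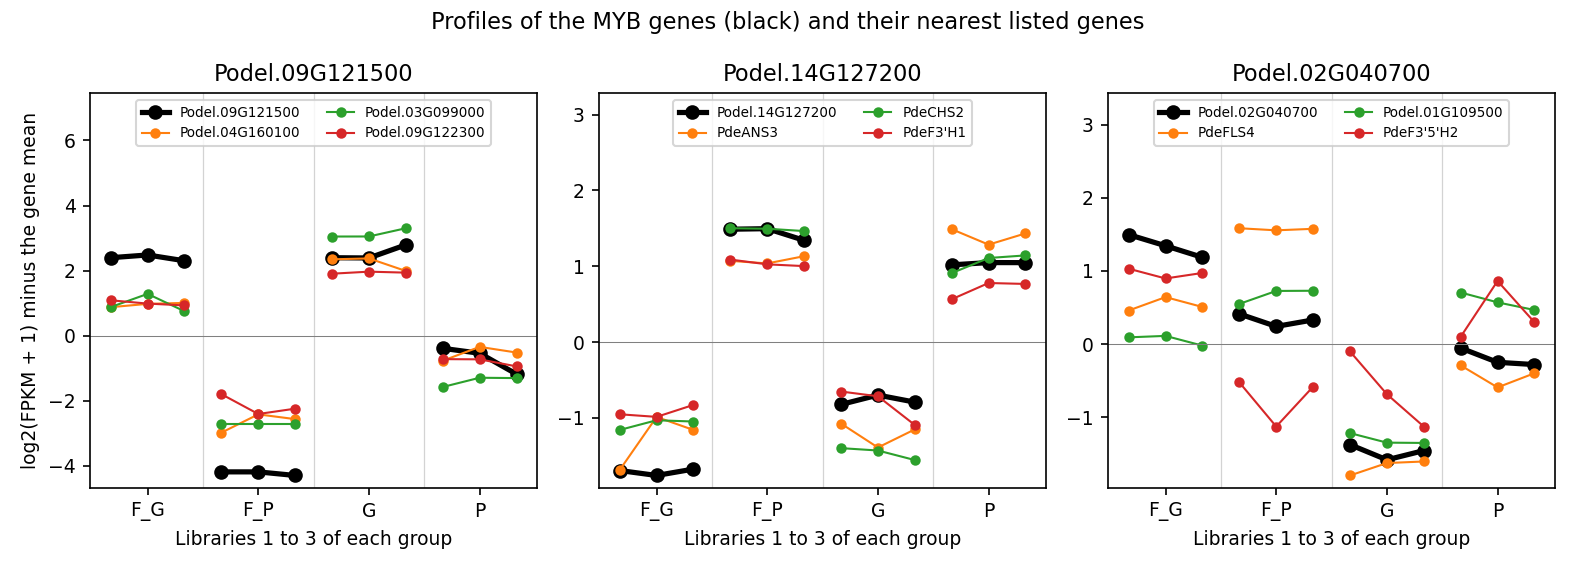
Profiles of Podel.09G121500, Podel.14G127200 and Podel.02G040700 (black) and of the 3 nearest listed genes of each (colors), as log2(FPKM + 1) minus the mean of the gene over the 12 libraries, for libraries 1 to 3 of F_G, F_P, G and P. Lines join libraries of 1 group only. The profiles of PdeANS3, PdeCHS2 and PdeF3'H1 lie close to Podel.14G127200, with RMS differences of 0.446 to 0.486, while those beside Podel.02G040700 lie farther from it, at 0.768 to 0.826.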

How the data were processed

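RNA-seq was performed by the authors on 12 leaf libraries in 4 groups of 3 biological replicates, grouped by the sample labels. The authors purified mRNA, sequenced paired ends, mapped the reads with HISAT2, assembled transcripts with StringTie and tested genes with DESeq. Which versions were run and whether reads were counted by strand is not given in the sources used here. FPKM per gene and library were deposited with an annotation that does not name its build. FPKM multiplied by exon length gave whole fragments (within 0.02) for 100% of the values checked up to 20000 fragments, so depth was known. Of the 46170 genes, 1317 are outside the annotation. The reference gene table (31722 genes) held none of the identifiers (0), so names came from the study's tables, and no sequence is shown.

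Groups were compared on log2(FPKM + 1) with the trend method of limma 3.58.1 (R 4.3.3), 6 libraries per fit, keeping genes that reached 1 FPKM in 3 or more libraries. A call needed a p, adjusted over all genes (Benjamini-Hochberg), no higher than 0.05 and an absolute log2 change of at least 1. The design allowed for counts or FPKM, and its FPKM part was used. The procedure was tested on simulated data. The members and lists were chosen with earlier results of these data known. Genes named are the 3 genes, the other listed MYB genes, the 3 nearest listed genes of each (also with the sign turned), the single nearest of all genes, and listed genes among 10 neighbours on each side. The pair of exon lengths was singled out after the data had been seen. Alternatives were no filter, a pseudocount of 0.1, median-of-ratios or total-fragment scaling, all 12 libraries in 1 fit, the replicate number as a block, voom on recovered fragments, and leaving out each library. Ratio intervals cover counting error only. Python 3.11.15, pandas 2.3.3, numpy 2.4.6, scipy 1.17.1 and matplotlib 3.10.9 were used.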

Additional observations from a re-analysis of the deposited data

Results flagged for a closer look

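Podel.02G040700 changed in opposite directions with leaf color. Its log2 change was −1.01 within ZSY and 1.28 between P and G. All F_P libraries lay below all F_G libraries, and all P libraries above all G libraries. The gene was chosen for this pattern, and the difference between the 2 changes was not tested.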

How the results depend on the processing

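Total-fragment scaling moved the median log2 change of all genes by −0.10 in F_P vs. P, 0.11 in F_G vs. G and 0.16 in P vs. G, and voom by −0.12, 0.12 and 0.18. Podel.09G121500 in F_G vs. G turned to 0.0020 with total fragments and 0.0034 with voom, and relative to the median it was −0.093 in the FPKM fit, −0.072 with total fragments and −0.080 with voom. It was −0.20 to 0.00053 over the fits without 1 library. With a pseudocount of 0.1, Podel.14G127200 had −1.21 in F_G vs. G, 3.62 within ZSY and 1.99 between P and G, and Podel.09G121500 −9.43 in F_P vs. F_G. With total fragments, Podel.14G127200 had 1.98 and Podel.02G040700 1.46 in P vs. G, and Podel.02G040700 0.41 in F_P vs. P. With voom, Podel.14G127200 had −1.11 in F_G vs. G, 3.61 within ZSY and 2.20 between P and G, Podel.02G040700 3.04 in F_G vs. G and 1.53 in P vs. G, and Podel.09G121500 −10.35 in F_P vs. F_G. The share of calls higher in F_P among those of F_P vs. P was 47.7%, and 36.3% with voom. With a pseudocount of 0.1 or with voom the numbers of genes called stayed within 1.5 times those given.

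The log2 change of Podel.09G121500 in F_P vs. P ranged from −7.20 to −3.36 over the 13 alternatives, with 2 fragments in all of F_P. Libraries with the same replicate number had correlations of −0.26 to 0.11 between their deviations from the group means. The highest, 0.109 for replicate 2 of P vs. G, was just over the 0.1 set as a mark of pairing. The main fits used no block, since whether such libraries shared plants is not stated. With the number as a replicate block, 2625 genes were called in F_P vs. P, 5310 in F_G vs. G, 4720 in F_P vs. F_G and 6948 between P and G, against 2619, 5332, 4685 and 6931 without it. With a pseudocount of 0.1, another gene was nearest of all to Podel.09G121500 and Podel.02G040700, and PdeF3'H3 became the nearest listed gene of Podel.02G040700 (0.701) and Podel.03G099000 that of Podel.09G121500 (1.15). Podel.09G122300 then left the 3 listed genes nearest to Podel.09G121500, and PdeF3'5'H2 left those nearest to Podel.02G040700. With the sign turned, PdeCHS2 left those of Podel.09G121500, Podel.05G135800 those of Podel.14G127200 and PdeUFGT2 those of Podel.02G040700. The cause of these shifts was not tested. With 3 libraries a group, an exact permutation test of a single gene could not go below 0.1; depth limits Podel.09G121500 in F_P.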
